A study of Mus musculus with 8 samples.

Results

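MHC class I antigen presentation was described through 10 genes: the heavy chain genes H2-K1, H2-D1, H2-T23 and H2-M3, the light chain gene B2m, and Tap1, Tap2, Tapbp, Erap1 and Nlrc5. They were picked by gene symbol from a table of 15465 genes, and 10 of 10 were found. RNA sequencing had been done on 8 samples of wild type C57/BL6 mouse cells in 2 groups, 4 transfected with the control siRNA si-nc and 4 with si-Suclg2. In both groups, bone marrow cells had grown for 6 days with the cytokines GM-CSF and IL-4 and then received lipopolysaccharide (LPS) for 24 hours. CD11c+ cells from these cultures were then held on spleen stroma for 9 days, which yields the cells labelled diffDC, and transfected. Suclg2 encodes a subunit of mitochondrial succinyl-CoA ligase. The model is an siRNA knockdown in a bulk culture, and no source used here gives the siRNA sequences, the time from transfection to harvest or what distinguishes the replicates.

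Class I molecules carry peptides from inside the cell to its surface, where CD8 T cells read them. A polymorphic heavy chain pairs with beta2-microglobulin in the endoplasmic reticulum. Peptides cut by the proteasome enter through the TAP transporter, are trimmed by ERAP1, and are fitted into the heavy chain with the help of tapasin and other chaperones. The transactivator NLRC5, together with RFX, CREB/ATF and NF-Y proteins, drives transcription from a conserved set of promoter boxes in class I genes, and NF-kB and interferon regulatory factors bind next to it. Dendritic cells use this route for their own peptides and for peptides from ingested material.

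Suclg2 (gene ID 20917), the siRNA target, was at 4.68, 4.69, 4.56 and 4.43 FPKM in si-nc samples 1 to 4. It was at 2.23, 2.30, 2.76 and 2.61 FPKM in si-Suclg2 samples 1 to 4, and the groups did not overlap. The mean left was 53.9% of the control (a log2 fold change of -0.69, SE 0.066, limma adjusted p = 8.84e-05; two-sided exact permutation p = 0.0286, the smallest that 70 assignments allow). FPKM are fragments per kilobase of transcript, scaled to the library, so levels can be set side by side between genes. Log2 fold changes are si-Suclg2 minus si-nc on the log2(FPKM + 1) scale. Summed values ran from 506242 to 539290 FPKM per sample.

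The libraries fell apart by sample number as well as by group. Deviations from the group means correlated across genes at r = 0.527, 0.439, 0.405 and 0.553 between same-numbered samples of both groups. Samples 1 and 2 of each group resembled each other, as did samples 3 and 4. Between differently numbered samples of these sets in opposite groups, r was as high, at 0.437 to 0.558. Of 8 conventional dendritic cell markers found in the table, 5 reached a mean of at least 1 FPKM in 1 group. Of these 5, 0 rose and 2 fell, a called share of 40% beside 26.9% of all genes tested. Those that fell were Itgax and Clec10a, the latter named after its values were seen. With sample number as a block, 1 rose and 2 fell. Among the 5, Irf8 was at 71.2 ± 7.23 FPKM in controls and 67.8 ± 4.91 FPKM after si-Suclg2 (SD, n = 4 each), and it did not pass. The other 3 of the 8 (Flt3, Zbtb46 and Clec9a) stayed below 1 FPKM in all samples. Clec10a was at 12.6 ± 4.62 and 4.18 ± 0.136 FPKM. Macrophage and monocyte markers were abundant. Over 13 genes their summed level was 19400 to 23846 FPKM in si-nc and 16805 to 20383 FPKM in si-Suclg2 samples. The largest part of that sum was Lyz2, at 10384 ± 1140 and 7455 ± 714 FPKM (SD, n = 4 each). Of the 13 genes, 3 rose and 4 fell, a called share of 53.8% beside 26.9% of all genes tested. Those that rose were Adgre1, Fcgr1 and Ly6c2, and those that fell were Csf1r, Cd68, Lyz2 and Ccr2. All but Lyz2 were named after their values were seen. Itgax, which encodes CD11c, the selection marker, was at 20.2 ± 2.84 and 12.6 ± 0.958 FPKM (SD, n = 4 each). Stromal and endothelial markers, 9 found, summed to between 9.34 and 22.1 FPKM with si-nc and between 8.04 and 17.01 FPKM with si-Suclg2; those lists' part in the results below was not tested. T cell, B cell and NK cell markers, 8 found in all, stayed below 1 FPKM in every sample. Neutrophil markers summed to at most 3.05 FPKM and erythroid markers to at most 1.42 FPKM. In bulk RNA, fewer cells of a type and less RNA per cell cannot be told apart.

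Most of the class I genes did not pass the test, and the few small changes that passed it did not share a direction. Tapbp and H2-D1 were lower with si-Suclg2, by 15.5% and 11.2% of the control mean, and Tap2 was higher by 16.0%. So 3 of the 10 passed limma's adjusted p of 0.05, 1 of them higher and 2 lower. Over all 10176 genes tested, 26.9% passed, 12% higher and 14.9% lower, so the share among the 10 was close to the background. With sample number as a block, 4 of 10 passed, against 40.5% of all genes. The median log2 fold change of the 10 was 0.02, beside -0.03 over all genes tested, and lay between -0.03 and 0.06 over the 17 alternative settings run. All 10 genes passed the filter on low values, a mean of at least 1 FPKM in 1 group.

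**Figure D1:**
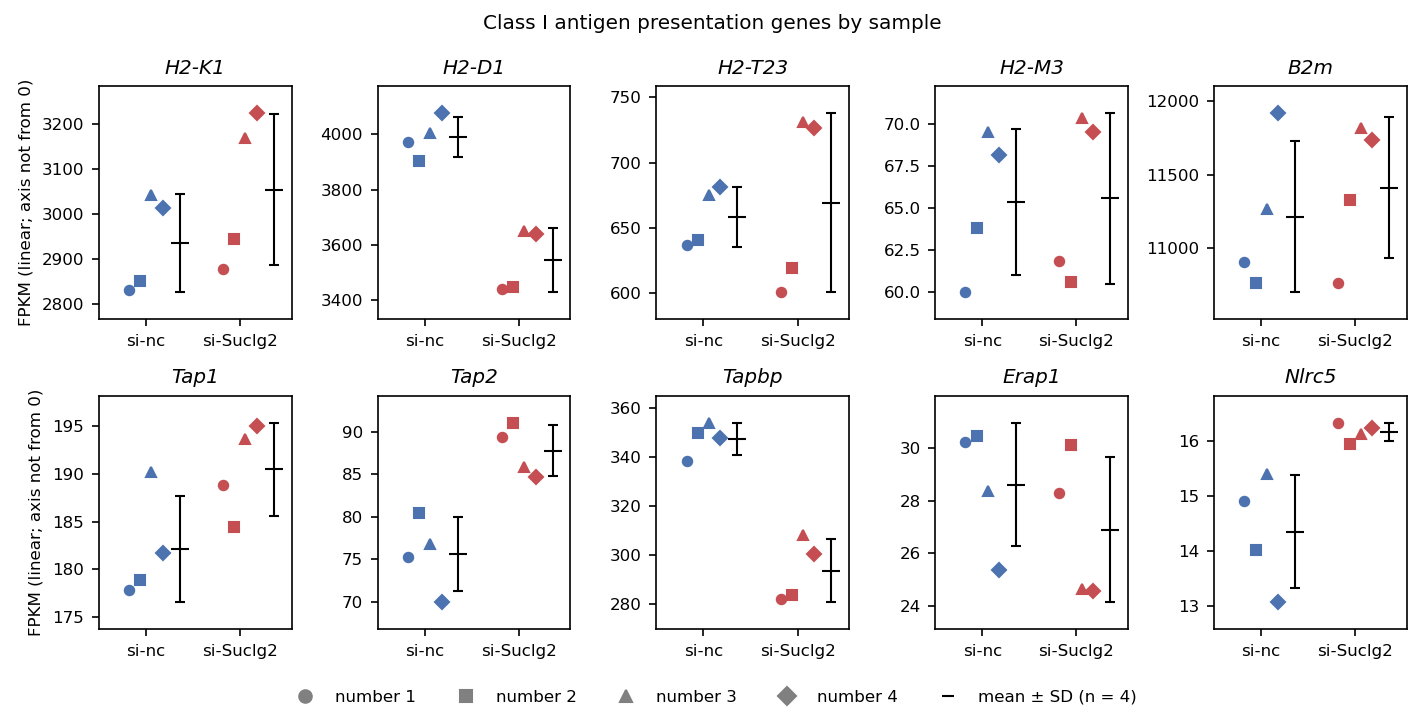
FPKM of each of the 10 class I genes by sample, on linear axes that do not start at 0; marker shapes give the sample number, and black bars the mean ± SD (n = 4). The groups are apart for H2-D1, Tap2, Tapbp and Nlrc5, and overlap for the other 6 genes.

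The order of the 10 levels was the same in all 8 samples. B2m came first, followed by H2-D1, H2-K1, H2-T23, Tapbp, Tap1, Tap2, H2-M3, Erap1 and Nlrc5. For each of the 9 neighbouring pairs in this order, the ranges did not overlap within either group. B2m, whose product every class I heavy chain needs, exceeded the summed level of H2-K1 and H2-D1 by a factor of 1.59 to 1.77 across samples and was the 3rd most abundant gene of those tested. H2-D1 and H2-K1 ranked 11 and 14, whereas Nlrc5, the regulator, was above only 59.5% of the genes tested.

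H2-K1 and H2-D1 encode the classical heavy chains of C57BL/6 mice, which present peptides to CD8 T cells. H2-D1 (gene ID 14964; GRCm38 chromosome 17, 35262730 to 35267499, plus strand, protein-coding) was at 3974, 3905, 4004 and 4078 FPKM in si-nc samples 1 to 4. It was at 3439, 3447, 3650 and 3638 FPKM in si-Suclg2 samples 1 to 4. Every si-Suclg2 sample lay below every si-nc sample, and the means were 3990 ± 71.6 and 3543 ± 116 FPKM (SD, n = 4 each). The log2 fold change was -0.17 with an SE of 0.054 (adjusted p = 0.0413, limma).

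That call sat close to the threshold. It was lost when any single sample of the 8 was left out (limma adjusted p from 0.0618 to 0.107), although the log2 fold change stayed between -0.19 and -0.16. It was also lost with trimmed-mean scaling (-0.13, limma adjusted p = 0.16) and without the filter on low values (limma adjusted p = 0.236).

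H2-K1 (gene ID 14972; GRCm38 chromosome 17, 33996017 to 34000347, protein-coding on the minus strand) did not pass. Its levels were 2830, 2851, 3041 and 3014 FPKM in si-nc samples 1 to 4 and 2878, 2944, 3169 and 3224 FPKM in si-Suclg2 samples 1 to 4. The groups overlapped, with samples 3 and 4 above samples 1 and 2 in both. The log2 fold change was 0.06 (95% CI -0.08 to 0.19; limma adjusted p = 0.543), and quantile normalization turned it to -0.10 (limma adjusted p = 0.0589).

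The classical pair could be compared within each sample, where no scaling between libraries enters. The ratio of H2-D1 to H2-K1 was 1.40, 1.37, 1.32 and 1.35 in si-nc samples 1 to 4. It was 1.19, 1.17, 1.15 and 1.13 in si-Suclg2 samples 1 to 4, below every control. The mean ratio went from 1.36 ± 0.0365 to 1.16 ± 0.0282 (SD, n = 4 each; two-sided exact permutation p = 0.0286, the smallest possible here). Adjusted over the 3 ratios formed, one for each pair of genes with the same role, p was 0.0858. These ratios were added after the values had been seen.

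**Figure D2:**
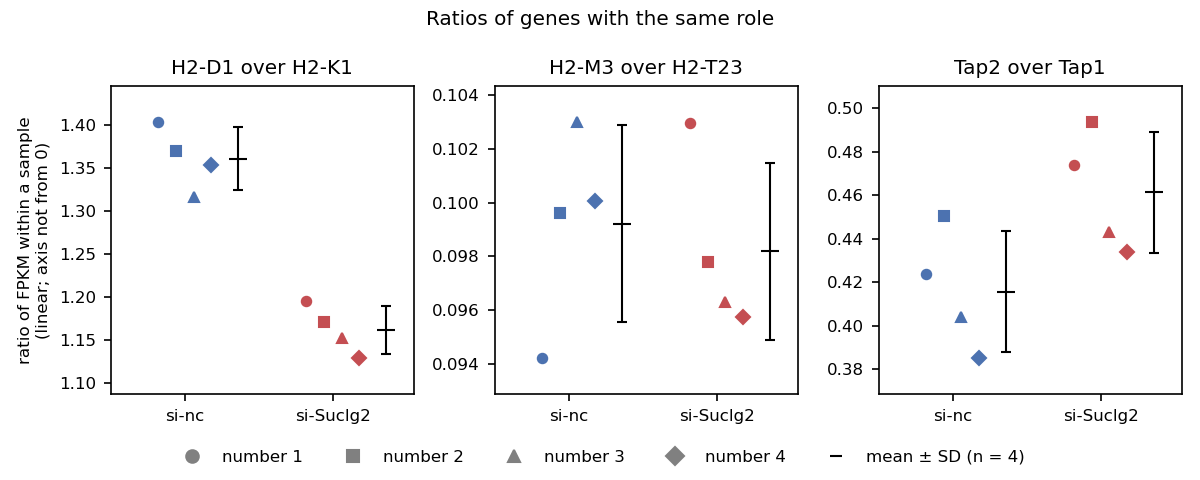
Ratios of FPKM within each sample for the pairs H2-D1 and H2-K1, H2-M3 and H2-T23, and Tap2 and Tap1, on linear axes that do not start at 0; shapes give the sample number and black bars the mean ± SD (n = 4). Only the H2-D1 to H2-K1 ratio separates the groups, at 1.13 to 1.19 with si-Suclg2 against 1.32 to 1.40 with si-nc.

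Class I heavy chain genes resemble each other, so reads can be shared between them. In GENCODE M21 transcripts, 14.3% of the 50-base stretches of H2-D1 and 8.79% of those of H2-K1 also occurred in transcripts of another gene. For 100-base stretches the shares were 4.64% and 0%. The sources used here give neither read length nor how shared reads were handled, so the levels of these genes carry that uncertainty. B2m, Erap1 and Nlrc5 shared 0% of their 50-base stretches.

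The 2 classical genes have closely matching promoters, printed here with those of B2m and H2-M3, which carry the same arrangement, and of Tapbp, which does not. Each line is the 200 bases before the RefSeq transcription start (build GRCm38.p6, 5′ to 3′ on the gene's strand). For H2-K1 this is chr17:34000348-34000547, minus strand, before the more upstream of its RefSeq starts. For H2-D1 it is chr17:35262894-35263093, for B2m chr2:122147487-122147686, for H2-M3 chr17:37270034-37270233 and for Tapbp chr17:33919278-33919477, all on the plus strand. The GENCODE bounds of H2-D1 and Tapbp begin further upstream, so those 2 stretches lie inside them. The bound of H2-M3 begins at 37270220, so the end of its stretch also lies inside. That of B2m begins at the last base of its stretch, 122147686. Capitals mark the kB letters GGGNNTTCC and the interferon regulatory factor core AANNGAAA. They also mark TGACG and ATTGG where exactly 20 bases separate them, as in the X2 and Y boxes of H2-K1, H2-D1, B2m and H2-M3. All were searched on both strands.
H2-K1: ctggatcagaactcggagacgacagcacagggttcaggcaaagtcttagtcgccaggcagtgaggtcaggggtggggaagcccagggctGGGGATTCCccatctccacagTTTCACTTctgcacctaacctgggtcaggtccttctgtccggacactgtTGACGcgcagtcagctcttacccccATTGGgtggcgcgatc
H2-D1: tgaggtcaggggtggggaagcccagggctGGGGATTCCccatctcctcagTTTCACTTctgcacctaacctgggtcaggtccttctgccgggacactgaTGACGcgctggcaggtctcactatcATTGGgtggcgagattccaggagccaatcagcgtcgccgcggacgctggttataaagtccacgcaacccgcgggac
B2m: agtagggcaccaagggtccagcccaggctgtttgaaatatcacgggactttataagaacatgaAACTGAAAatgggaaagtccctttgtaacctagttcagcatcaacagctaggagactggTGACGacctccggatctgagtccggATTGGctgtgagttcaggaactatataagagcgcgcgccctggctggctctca
H2-M3: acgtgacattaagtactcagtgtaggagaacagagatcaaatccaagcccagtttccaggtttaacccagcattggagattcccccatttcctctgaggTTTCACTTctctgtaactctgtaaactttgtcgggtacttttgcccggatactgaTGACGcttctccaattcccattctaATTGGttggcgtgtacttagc
Tapbp: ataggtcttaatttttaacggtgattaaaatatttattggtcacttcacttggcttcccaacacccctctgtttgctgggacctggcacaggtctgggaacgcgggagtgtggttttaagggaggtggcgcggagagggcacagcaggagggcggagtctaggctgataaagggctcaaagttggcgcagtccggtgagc

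The arrangement TGACGNNNNNNNNNNNNNNNNNNNNATTGG was found within 250 bases before the start in 4 of the 8 members with a RefSeq window, namely H2-K1, H2-D1, B2m and H2-M3. It was found in 30 of all 32851 windows, or 0.0913%. Among the other class I and class I-like chain genes, 11 had a window and 0 had the arrangement. H2-M2, H2-Q4, H2-Q7 and H2-T22 had both TGACG and ATTGG, but not so placed. The spacing was read from the promoters of the 4 members, so their own matches are a description. Between TGACG and ATTGG, H2-K1 and H2-D1 had 13 of 20 bases in common, H2-K1 and H2-M3 7, and H2-D1 and B2m 2. Of the 8, the kB letters were in H2-K1 and H2-D1, and over all genes in 4.98% of windows. Only these exact letters were searched, so a kB site of another length or spelling would be missed. Their absence from a window, such as that of B2m, therefore does not show that it lacks a kB site. AANNGAAA was in 5 of the 8 members and in 21.3% of windows. TGACG alone was in 17.8% and ATTGG alone in 33.8% of windows.

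From the kB letters through ATTGG, H2-K1 and H2-D1 were identical at 89 of 100 bases, with no gap. Of these 4 genes with the shared arrangement, H2-D1 was lower with si-Suclg2, and H2-K1, B2m and H2-M3 did not pass the test. Nlrc5 and Tap2 had no window among those used.

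Neither of the non-classical heavy chains among the 10, H2-T23 and H2-M3, passed the test. H2-T23 encodes Qa-1, which presents leader peptides of other class I molecules to inhibitory receptors on NK cells. It was at 637, 641, 675 and 681 FPKM in si-nc samples 1 to 4 and at 601, 620, 731 and 726 FPKM in si-Suclg2 samples 1 to 4. The si-Suclg2 samples lay on both sides of the controls, and the log2 fold change was 0.02 (95% CI -0.14 to 0.18; limma adjusted p = 0.88). In samples 1 and 2 alone it was -0.07 and in samples 3 and 4 alone 0.10, with limma adjusted p of 0.176 and 0.113; the difference between them was not tested. H2-T23 shared 28.8% of its 50-base stretches with other genes and overlaps the antisense gene A930015D03Rik, and no source used here says whether strand entered the counting.

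H2-M3 presents N-formylated peptides of bacterial or mitochondrial origin. It was at 60.0, 63.8, 69.5 and 68.2 FPKM in si-nc samples 1 to 4 and at 61.8, 60.6, 70.4 and 69.5 FPKM in si-Suclg2 samples 1 to 4. Same-numbered samples of the groups were nearly level, and the log2 fold change was 0.00354 (95% CI -0.15 to 0.15; limma adjusted p = 0.979). The ratio of H2-M3 to H2-T23 was 0.0992 ± 0.00368 with si-nc and 0.0982 ± 0.00329 with si-Suclg2 (SD, n = 4 each; two-sided exact permutation p = 0.629, adjusted p = 0.629).

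B2m (gene ID 12010; GRCm38 chromosome 2, 122147686 to 122153083, plus strand, protein-coding) was at 10907, 10761, 11266 and 11921 FPKM in si-nc samples 1 to 4. It was at 10762, 11329, 11819 and 11739 FPKM in si-Suclg2 samples 1 to 4. The groups overlapped over nearly their whole range, and the log2 fold change was 0.03 (95% CI -0.14 to 0.19; limma adjusted p = 0.834).

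Tap1 and Tap2 encode the subunits of the peptide transporter. Tap2 (gene ID 21355; GRCm38 chromosome 17, 34203527 to 34216321, plus strand, protein-coding) was at 75.3, 80.5, 76.8 and 69.95 FPKM in si-nc samples 1 to 4. It was at 89.45, 91.1, 85.8 and 84.7 FPKM in si-Suclg2 samples 1 to 4. All 4 si-Suclg2 samples were above all 4 controls, and the log2 fold change was 0.21 with an SE of 0.050 (adjusted p = 0.012, limma). The call held with any 1 sample left out (limma adjusted p from 0.0104 to 0.0358) and was lost when columns were set to a common sum (0.19, limma adjusted p = 0.0569). Tap2 overlaps the non-coding genes Gm20496 and Gm15821 on the opposite strand.

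Tap1 (gene ID 21354) was at 178, 179, 190 and 182 FPKM in si-nc samples 1 to 4 and at 189, 184, 194 and 195 FPKM in si-Suclg2 samples 1 to 4. The groups overlapped through si-nc sample 3, and Tap1 did not pass (log2 fold change 0.06, 95% CI -0.02 to 0.15; limma adjusted p = 0.269; -0.05 after quantile normalization). The ratio of Tap2 to Tap1 was 0.416 ± 0.0279 with si-nc and 0.461 ± 0.0276 with si-Suclg2 (SD, n = 4 each), and the groups overlapped (two-sided exact permutation p = 0.0857, adjusted p = 0.129). Within each sample number, the ratio was higher with si-Suclg2.

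Psmb9, an immunoproteasome subunit gene, is read in the opposite direction from a start 225 bases from that of Tap1. It rose from 180 ± 5.01 to 201 ± 7.02 FPKM (SD, n = 4 each; a log2 difference of 0.16, SE 0.042, adjusted p = 0.0203 in limma). The Psmb9 call was lost when si-nc sample 1, or si-Suclg2 sample 3 or 4, was left out (limma adjusted p up to 0.0606). Tap1 and Psmb9 overlap in GENCODE on opposite strands.

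Tapbp had the smallest p of the 10. It encodes tapasin, which bridges the heavy chain and the TAP transporter and edits the peptide. Tapbp (gene ID 21356; GRCm38 chromosome 17, 33915899 to 33929292, plus strand, protein-coding) was at 338, 350, 354 and 348 FPKM in si-nc samples 1 to 4. It was at 282, 284, 308 and 300 FPKM in si-Suclg2 samples 1 to 4. The groups were apart: every control lay above every si-Suclg2 sample.

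The Tapbp mean went from 347 ± 6.53 to 294 ± 12.8 FPKM (SD, n = 4 each; a log2 difference of -0.24, SE 0.043, adjusted p = 0.00296 in limma). It passed under each of the 17 alternative settings (limma adjusted p from 0.00028 to 0.0175), with log2 fold changes from -0.28 to -0.20. By percentile, 14.3% of all genes tested had a log2 fold change this low or lower. In GENCODE, Tapbp overlaps Zbtb22 on its own strand and Gm19412 on the other.

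Erap1, the aminopeptidase that trims peptides in the endoplasmic reticulum, was at 30.2, 30.5, 28.4 and 25.4 FPKM in si-nc samples 1 to 4. It was at 28.3, 30.1, 24.6 and 24.6 FPKM in si-Suclg2 samples 1 to 4. Here samples 3 and 4 lay below samples 1 and 2 in both groups, and the log2 fold change of -0.09 did not pass (95% CI -0.27 to 0.09; limma adjusted p = 0.474). Erap1 overlaps Cast on the opposite strand.

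Nlrc5 (gene ID 434341; GRCm38 chromosome 8, 94434356 to 94527272, plus strand, protein-coding) was at 14.9, 14.0, 15.4 and 13.1 FPKM in si-nc samples 1 to 4. It was at 16.34, 15.95, 16.13 and 16.25 FPKM in si-Suclg2 samples 1 to 4. The groups did not overlap, but the log2 fold change of 0.16 ± 0.054 (SE) fell just short of the threshold (limma adjusted p = 0.0501). With sample number as a block, the adjusted p was 0.0249, and without si-nc replicate 3 it was 0.0321. Quantile normalization (0.0434), trimmed-mean scaling (0.0239) and the stricter filter on low values (0.0416) also brought it past 0.05. Nlrc5 did not pass in the other 12 of the 17 alternative settings, with limma adjusted p up to 0.14 (common column sum).

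**Figure D3:**
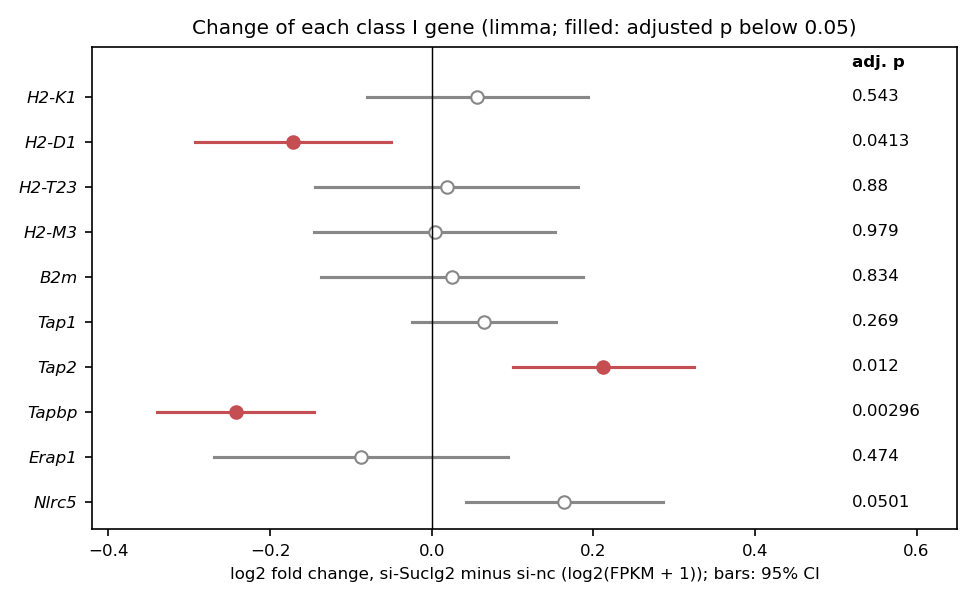
Log2 fold change of each class I gene, si-Suclg2 minus si-nc on the log2(FPKM + 1) scale, with 95% confidence intervals from limma and the adjusted p at the right (n = 4 per group). Filled points mark Tap2 above 0 and H2-D1 and Tapbp below it; the other intervals include 0 except that of Nlrc5, whose adjusted p is 0.0501.

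In all, 4 of the 10 genes had groups with no overlap, beside 29.6% of all genes tested. For 8 of the 10, the 95% confidence interval lay within 0.3 of 0 on the log2 scale; the exceptions were Tap2 and Tapbp. Sample number moved several of these genes by as much as the siRNA or more. In both groups, samples 3 and 4 were above samples 1 and 2 for 6 genes (H2-K1, H2-D1, H2-T23, H2-M3, B2m and Tap1) and below for Erap1. For H2-M3 the offset was 0.15 with si-nc and 0.19 with si-Suclg2 on the log2 scale, and for Tap2 it was -0.09 and -0.08. No source used here says what the numbers stand for.

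The authors' deposited table, made with DEGseq, gave a q-value below 0.05 for 9 of the 10 genes, beside 47.6% of its 15465 genes. In the authors' deposited table the exception was H2-M3 (q = 0.902). B2m had a log2 fold change of 0.03 and q = 3.06e-29 in the authors' deposited table, and H2-K1 0.06 and q = 3.24e-72. Of these 9 genes, 6 were not called by limma, which was run on log2(FPKM + 1) over the filtered genes; what sets the results apart was not tested.

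**Figure D4:**
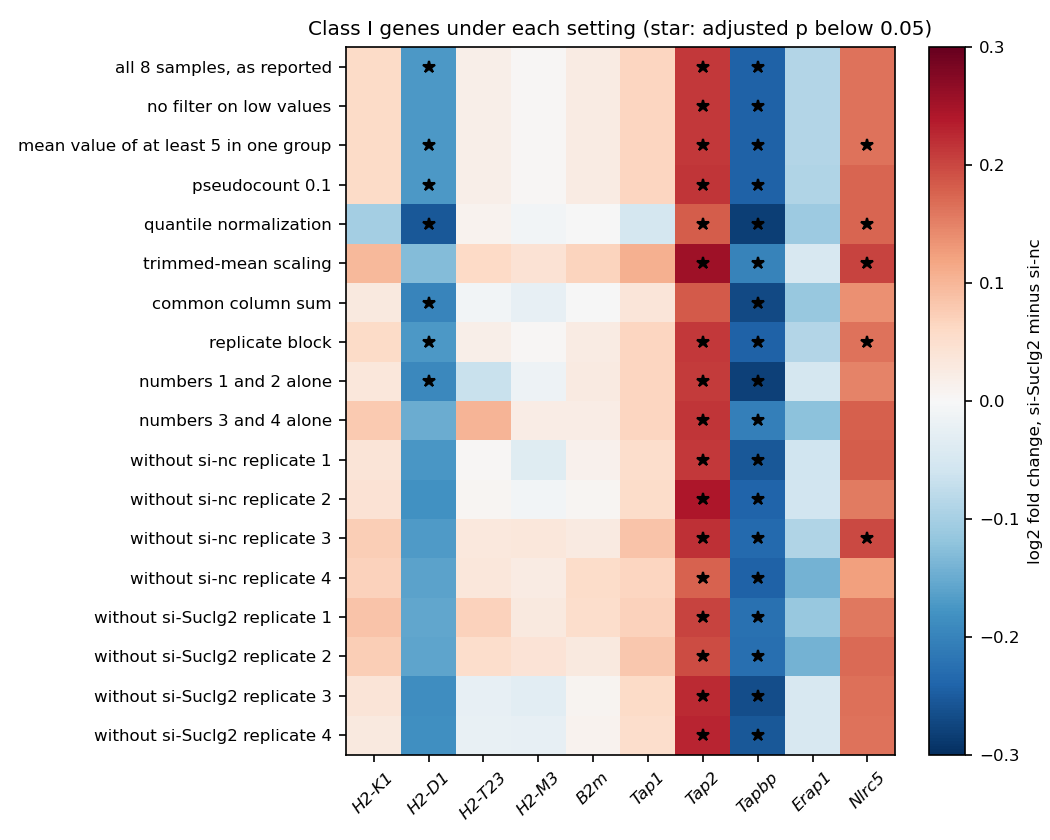
Log2 fold change (colour, si-Suclg2 minus si-nc) of each class I gene with all 8 samples and under the 17 alternative settings; stars mark an adjusted p below 0.05. Tapbp is starred in every row, Tap2 in all but the common column sum, H2-D1 in 6 of the 17 alternatives and Nlrc5 in 5.

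Other genes of the pathway were followed through lists of class I and class I-like chains, chaperones and peptide supply, and regulators. Among the other heavy chains and class I-like chains, 12 of 18 were tested; 5 rose, 0 fell and 7 did not pass, beside the 12% higher and 14.9% lower over all genes. Their median log2 fold change was 0.17, against -0.03 over all genes tested. It was 0.09 without si-nc replicate 1 and 0.06 over 16 genes with no filter on low values. H2-T22, a non-classical chain that gamma delta T cells recognise, was at 556, 538, 540 and 512 FPKM in si-nc samples 1 to 4. It was at 649, 663, 748 and 739 FPKM in si-Suclg2 samples 1 to 4, all above the controls. Its log2 fold change was 0.38 with an SE of 0.059 (adjusted p = 0.00135, limma), larger than that of any of the 10 members.

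Its close relative H2-T10 rose from 10.8 ± 0.637 to 14.8 ± 1.60 FPKM (SD, n = 4 each; limma adjusted p = 0.00324). Of the 50-base stretches of H2-T10, 40.2% also occur in H2-T22, and 37.9% of those of H2-T22 in H2-T10, so their levels are uncertain against each other. H2-T24 rose from 120 ± 7.29 to 141 ± 6.42 FPKM (limma adjusted p = 0.0109). Cd1d1, whose product presents lipids to NKT cells, rose from 6.70 ± 0.552 to 9.43 ± 0.862 FPKM (limma adjusted p = 0.00247) and shares 25.8% of its 50-base stretches with Cd1d2. H2-M2, named after its values were seen, rose from 112 ± 9.88 to 131 ± 6.33 FPKM (limma adjusted p = 0.0304); it lost the call when sample 3 or 4 of si-nc, or 2 or 4 of si-Suclg2, was left out (adjusted p up to 0.0769). H2-Q4, the second most abundant on the list, was at 360 ± 17.3 and 386 ± 6.29 FPKM and did not pass (limma adjusted p = 0.126).

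Of 14 chaperone and peptide supply genes, 2 rose, 1 fell and 11 did not pass, a called share of 21.4% beside 26.9% of all genes. The median log2 fold change was 0.04; it was -0.04 in samples 1 and 2 alone and 0.14 in samples 3 and 4 alone. With a sample left out it ran from 0.002 (si-Suclg2 replicate 3) to 0.13 (si-Suclg2 replicate 1), and was 0.02 with si-Suclg2 replicate 4, and 0.07 with si-nc replicate 4, left out. Besides Psmb9, Pdia3 rose from 193 ± 9.63 to 231 ± 21.4 FPKM (SD, n = 4 each; limma adjusted p = 0.023); it encodes ERp57, the thiol oxidoreductase joined to tapasin in the loading complex. Its call, like that of Psmb9, was lost when si-nc sample 1, or si-Suclg2 sample 3 or 4, was left out (limma adjusted p up to 0.0629). Uggt1, the glucosyltransferase that returns unfit class I molecules to the loading cycle, fell from 10.4 ± 0.488 to 7.998 ± 0.550 FPKM (limma adjusted p = 0.00236). The chaperone calreticulin gene Calr was at 427 ± 20.4 and 449 ± 61.1 FPKM, and the proteasome activator gene Psme1 at 346 ± 17.4 and 378 ± 19.4 FPKM. Neither passed (limma adjusted p = 0.646 and 0.113), though Psme1 did with sample number as a block (0.0289), a fit in which 6 genes of this list rose and 3 fell.

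Of 15 regulators, 3 rose, 4 fell and 8 did not pass, a called share of 46.7% beside 26.9% of all genes. The sign of the median log2 fold change, -0.02, was not stable: it was 0.02 with trimmed-mean scaling, and ranged from -0.05 without si-nc replicate 2 to 0.000588 without si-nc replicate 3. Stat2, a transducer of type I interferon signals, and Irf2, an interferon regulatory factor, were among those that rose (log2 fold changes 0.38 ± 0.049 and 0.29 ± 0.064 SE; limma adjusted p = 0.000493 and 0.00971). Irf1, another such factor, was at 94.3 ± 1.53 and 94.8 ± 1.20 FPKM and did not pass (limma adjusted p = 0.889). Nfya, a subunit of the Y box binding complex NF-Y, fell from 29.8 ± 0.446 to 25.0 ± 0.994 FPKM (limma adjusted p = 0.00212).

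The other falls among the regulators were Nfyb and the NF-kB genes Rela and Nfkb1, named after their values were seen, with log2 fold changes of -0.24, -0.16 and -0.16 (limma adjusted p = 0.0255, 0.0214 and 0.035). Each lost its call when some single samples were left out. Regulators that fell then numbered 1 with sample 3 or 4 of si-Suclg2 left out and 2 with sample 2 or 3 of si-nc left out. They were 2 with trimmed-mean scaling and 1 in samples 1 and 2 alone.

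**Figure D5:**
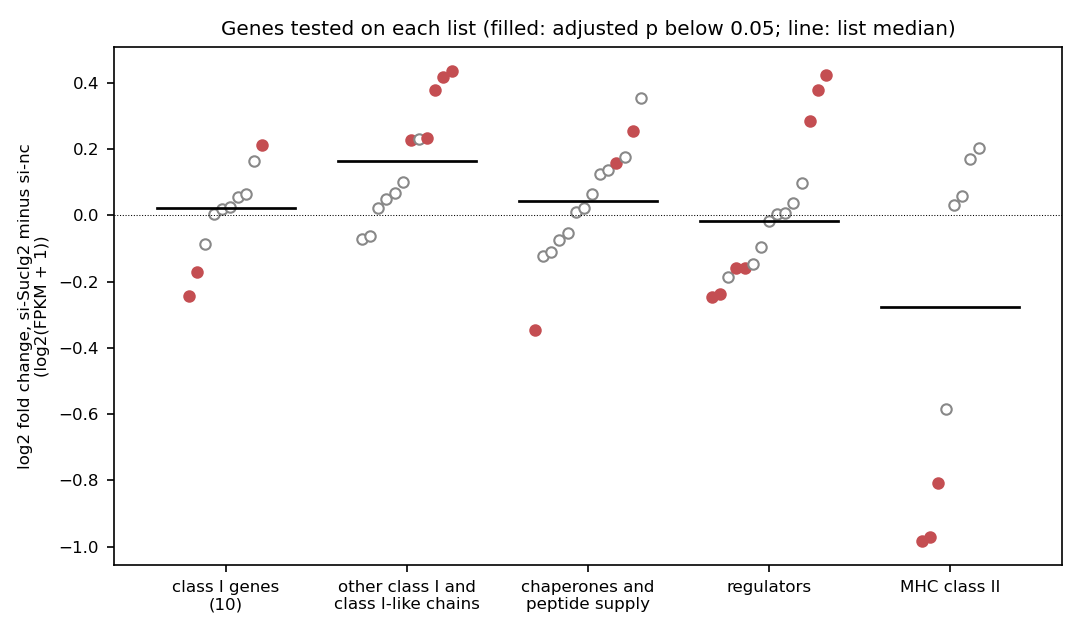
Log2 fold changes (si-Suclg2 minus si-nc, log2(FPKM + 1) scale) of the tested genes on each list; each point is a gene, filled where the adjusted p is below 0.05, and the line is the list's median. The class I genes stay between -0.24 and 0.21. Of the 8 MHC class II genes tested, Cd74, H2-Aa and H2-Eb1 lie between -0.98 and -0.81, H2-Ab1 lies at -0.58 and 4 lie above 0.

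MHC class II genes, which serve presentation to CD4 T cells, are set beside these values. Of 8 tested, 0 rose and 3 fell, beside 14.9% of all genes lower, with a median log2 fold change of -0.28 (0.03 over 9 genes with no filter on low values); the difference between the lists was not tested. H2-Aa was at 180, 191, 242 and 229 FPKM in si-nc samples 1 to 4 and at 81.1, 84.4, 138 and 135 FPKM in si-Suclg2 samples 1 to 4 (-0.97 ± 0.19 SE in log2 fold change, limma adjusted p = 0.00431). The invariant chain gene Cd74 went from 883 ± 67.0 to 506 ± 59.6 FPKM (SD, n = 4 each; -0.81 ± 0.089 SE, limma adjusted p = 0.000206), and H2-Eb1 fell by 0.98 on the log2 scale (limma adjusted p = 0.00783). H2-DMa, H2-DMb1 and H2-DMb2 encode chains of the class II peptide editor H2-DM. These genes and H2-Oa had log2 fold changes of 0.03 to 0.20 and did not pass (limma adjusted p from 0.162 to 0.84). H2-Ab1, named after its values were seen, had a log2 fold change of -0.58 with groups that did not overlap. It fell short of the threshold (limma adjusted p = 0.0546) and passed with sample number as a block (limma adjusted p = 0.00102). H2-D1, the class I heavy chain that was lower, changed by -0.17 on the same scale.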

How the data were processed

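Per the labels' protocols, total RNA was taken with TRIzol and read on Illumina HiSeq machines. The submitters' processing notes name GRCm38.p4 and mm10; no source used here names an aligner, a counting tool or an annotation. The authors deposited 1 table of expression values, with their log2 fold change and DEGseq p-values and q-values, per the file headers. The header names no unit. The values were treated as FPKM made by the authors: reads implied by the deposited p-value and fold, per unit of value, increased with the length of the transcript (rho = 0.905 by Spearman, 5428 genes, not independent of each other) and no longer did after division by length (-0.003). Depth is unknown, so no counting interval is given. The sign of the deposited log2 fold change was read from the values.

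Genes with a mean of at least 1 FPKM in 1 group (10176) were tested on log2(FPKM + 1) with limma 3.58.1 in R 4.3.3 (prior variance with a trend, no term but group, two-sided, Benjamini-Hochberg over all genes tested at 0.05); this understates changes of low genes. Promoters came from RefSeq (GRCm38.p6; 8 of 10 members matched) and gene positions and transcripts from GENCODE M21. Named pathway genes are, per list, up to 4 with the smallest p among those called and the 2 with the highest level; other names are marked, and 1 gene that the rule names is not reported here. The code was tested on simulated data. The members and lists were chosen with earlier results of these data known. Nothing says that replicates came from separate animals or cultures, so p-values measure the spread between these samples. Same-numbered samples deviated together (r of 0.405 to 0.553, above the 0.1 set for pairing). Differently numbered samples within 1 and 2, or within 3 and 4, did so as closely across the groups (r of 0.437 to 0.558). The deviations therefore do not tell same-numbered pairs from 2 sets of samples. Results of a replicate block on sample number are given where they alter a call, and the labels do not say what the number marks. Alternatives were other filters, a pseudocount of 0.1, 3 rescalings, the block, samples 1 and 2 or 3 and 4 alone, and each sample left out.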

Additional observations from a re-analysis of the deposited data

Results flagged for a closer look

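Of 28 named genes checked in both groups (56 groups of 4 samples), 1 had a sample far from the others, while chance alone gives about 1 in 20. Pdia3 was at 179.1 FPKM in si-nc sample 1, and the nearest of the other 3 controls was at 197.2 FPKM.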

How the results depend on the processing

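Suclg2 and Tapbp kept their direction and call under each alternative run; Suclg2 fell below the stricter filter of 5 FPKM, which therefore gave it no value. Among all genes, the replicate block raised the calls from 1221 to 1832 higher and from 1519 to 2294 lower. Trimmed-mean scaling moved the part of all calls that were higher from 44.6% to 56.4% (1519 higher and 1172 lower). Class I members higher numbered 1 with all samples, 2 with the stricter filter, quantile normalization, trimmed-mean scaling or the replicate block, and 0 with a common column sum. Members lower numbered 2 with all samples and 1 with no filter on low values, trimmed-mean scaling or samples 3 and 4 alone. The other pathway genes, class II left out, had 10 rises and 5 falls; the falls were 3 with trimmed-mean scaling and 2 with samples 1 and 2 alone. With each sample left out in turn, genes higher ranged from 956 to 1176 and genes lower from 1171 to 1448. Members higher then ranged from 1 to 2, members lower from 1 to 1, other pathway rises from 7 to 11 and falls from 2 to 6. The Suclg2 change ranged from -0.727 to -0.654. In these fits H2-D1 lost its call 8 times in 8. Among the class I, other pathway and class II genes, the replicate block added the calls of Nlrc5, Hfe, Canx, Tapbpl, Lnpep, Psmb8, Psme1, Psme2 and H2-Ab1. It ended none of theirs. The cause of these shifts was not tested.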
